A study of Mus musculus with 4 samples.

Results

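The genes of the POU domain transcription factors were examined for binding of INO80, the ATPase of a nucleosome remodelling complex, in mouse spermatocytes. The members are 10 named genes, Pou2f1, Pou2f2, Pou3f1, Pou3f2, Pou3f3, Pou4f1, Pou4f2, Pou4f3, Pou5f1 and Pou6f1, out of 21887 protein-coding genes. They were chosen by name, with the strong peak at Pou3f1 known, and each was given the INO80 peaks that lie within 5 kb of its annotated span. The fold, width and position of those peaks therefore entered the choice. They are given as a description, without a test. For comparison, 4 further mouse POU genes were added, Pou1f1, Pou2f3, Pou3f4 and Pou5f2.

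All samples came from testes of DBA/2J x C57BL/6J F1 mice whose germ cells had been synchronised. Daily injections of fertilysin for 7 days from 2 days after birth arrested them as spermatogonia, and retinoic acid followed at 9 days. Cells were taken 8 days after retinoic acid and enriched on a 28% Percoll gradient, and the labels call them first-wave early zygotene spermatocytes. Chromatin immunoprecipitation with sequencing (ChIP-seq) gave 2 INO80 libraries of 134.5 M and 125.2 M reads and 2 input libraries of 128.7 M and 62.1 M reads, of which 54.7% to 72.9% mapped uniquely. There was 1 condition and no INO80-deficient control. The labels do not say how many animals each library pooled, and the peak names of the INO80 replicates carry different dates, so replicate and date cannot be told apart. No RNA was measured here. The cell type on the label could therefore not be checked against expressed markers.

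POU proteins bind DNA through a bipartite domain, a POU-specific domain joined to a homeodomain, and many recognise the octamer sequence. Numbered classes share sequence and, to a degree, tissue. Class III and IV genes act mainly in neurons and sensory cells and are short genes with no or few introns, whereas class II genes span long introns. In the testis, Pou3f1 is known as a factor of spermatogonial self-renewal that responds to GDNF, and Pou5f1 (Oct4) as a marker of pluripotent cells and undifferentiated germ cells. INO80 remodels nucleosomes at gene starts and takes part in DNA repair.

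INO80 peaks lay within 5 kb of the 6 class III and IV members and, of the other 4 members, near Pou2f2 alone. In replicate 1, 6 of the 10 members had a peak within 5 kb, against 26.0% of all protein-coding genes. In replicate 2 it was 7 of 10, against 35.7%. All 6 class III and IV members had a peak in both lists that overlapped between replicates, against 23.9% of protein-coding genes with such a shared peak. The replicate 1 peaks at Pou3f2 and Pou3f3 were weak, with a −log10 q of 1.69 and 2.4. So was 1 of the 2 replicate 1 peaks at Pou4f1, at 1.55. Pou3f4, the class III gene that is no member, had a peak in replicate 2 alone. Of the 4 class II, V and VI members, none had a replicate 1 peak, and Pou2f2 alone had a replicate 2 peak. The authors also deposited a reproducible set made from both replicates, for which its title gives an irreproducible discovery rate (IDR) below 0.05. In it, 3 of the 10 members had a peak, against 14.9% of protein-coding genes. These were Pou3f1, Pou4f1 and Pou4f2. Since the choice of members used peaks, nothing is read from these differences from the background or between the classes.

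**Figure D1:**
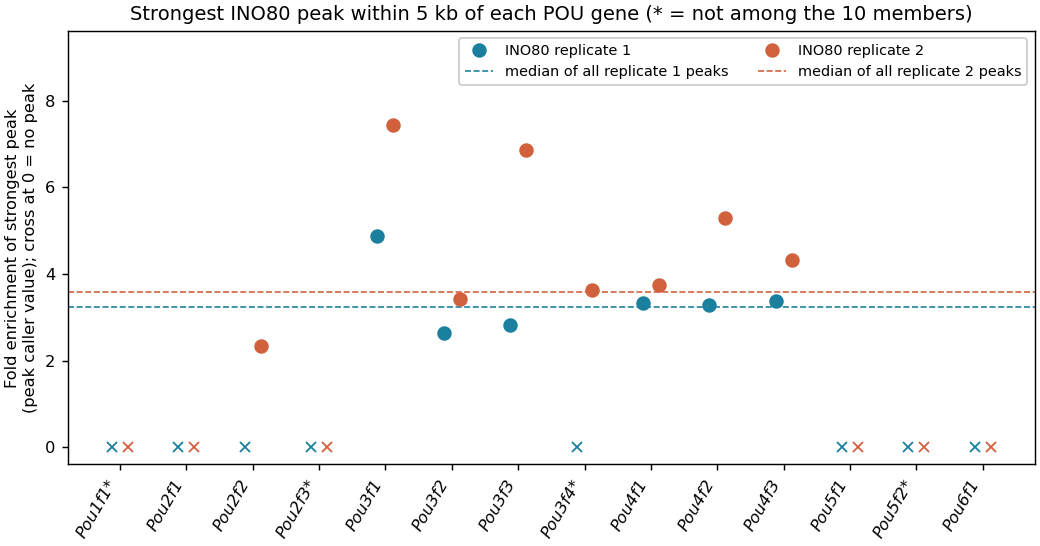
Fold enrichment (y axis, the peak caller's value) of the strongest INO80 peak within 5 kb of each of 14 mouse POU genes (x axis) in replicates 1 and 2, with a cross at 0 where no peak was listed and a dashed line at the median of each whole list. Pou3f1 stands highest in both replicates, at 4.88 and 7.44, and the class I, II, V and VI genes carry a single point, Pou2f2 at 2.33.

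Fold is the enrichment that the authors' peak caller gave each peak, and it is used here only to describe and rank peaks within a list. Pou3f1 (NCBI Gene 18991), also called Oct-6, is needed for myelination by Schwann cells and supports spermatogonial stem cells. Its peak had a fold of 4.88 in replicate 1 and 7.44 in replicate 2, a mean of 6.16 ± 1.81 (SD, n = 2), with a −log10 q of 13.3 and 38.4. It was the strongest POU peak in both lists. Of all peaks in each list, 7.16% in replicate 1 and 3.36% in replicate 2 had a fold as high or higher. The replicate 1 peak ran for 1325 bp, from 696 to 2020 bp downstream of the transcription start site (TSS), inside the gene. The replicate 2 peak ran for 3653 bp, from 1088 bp upstream to 2564 bp downstream, and held the whole replicate 1 peak. It covered 85.2% of the gene span of 3010 bp. The reproducible peak was at chr4:124656527-124660210 (GRCm38), from 1119 bp upstream to 2564 bp downstream of the TSS. The authors annotated it to the single exon of the gene, with the peak centre 722 bp downstream of the TSS.

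The replicate 2 peak also overlapped the long non-coding RNA gene Gm2164 by 930 bp, and Gm38545, another non-coding gene, lay 4084 bp from that peak. By fold in the 2 replicates, measured as Euclidean distance on the log2 scale over 3240 other genes with a reproducible peak within 5 kb, the 5 genes most like Pou3f1 were H1f4, H2bc6, Arid3a, Kiss1r and Dipk2a. H1f4 and H2bc6 share 1 peak with folds of 4.90 and 7.40, and Arid3a and Kiss1r share 1 with folds of 4.81 and 7.50. Dipk2a had folds of 4.91 and 7.58.

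Pou3f2 and Pou3f3, known as Brn2 and Brn1, act together in cortical neurons, and Pou3f3 also in the kidney. Both had overlapping peaks in the replicates but none in the reproducible set. At Pou3f3 the fold was 2.81 in replicate 1 and 6.85 in replicate 2, a mean of 4.83 ± 2.86 (SD, n = 2). The replicates placed it very differently within their lists: 77.9% of replicate 1 peaks and 5.46% of replicate 2 peaks were as strong or stronger. The replicate 1 peak was 681 bp wide and lay 2170 to 2850 bp downstream of the TSS. In replicate 2 the peak was 4696 bp wide, from 889 bp upstream to 3806 bp downstream, and covered 85.7% of the 4443 bp gene. That region lies entirely within the annotated span of the non-coding gene Gm46091, and its upstream edge is 54 bp from Pantr1, a non-coding gene beside Pou3f3. The non-coding gene 2900092D14Rik lay 762 bp from its other edge.

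At Pou3f2 the fold was 2.63 in replicate 1 and 3.42 in replicate 2, a mean of 3.03 ± 0.558 (SD, n = 2). This was the lowest of the 6 members with peaks in both lists. Its replicate 1 peak, 343 bp wide, lay upstream of the gene, 1034 to 1376 bp before the TSS. Its replicate 2 peak was 4723 bp wide, spanned from 3063 bp upstream to 1659 bp downstream and overlapped the non-coding gene Gm30731 by 882 bp. A second replicate 2 peak with a fold of 2.41 stood 1940 bp beyond the end of the gene, with no counterpart in replicate 1.

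The remaining class III gene, Pou3f4, required in the inner ear and X-linked, is no member. It had no replicate 1 peak and a replicate 2 peak with a fold of 3.62, 2599 bp wide, starting 66 bp downstream of the TSS.

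Class IV genes specify sensory neurons and receptor cells: Pou4f1 (Brn3a) sensory ganglia, Pou4f2 (Brn3b) retinal ganglion cells and Pou4f3 (Brn3c) the hair cells of the ear. Pou4f2 (NCBI Gene 18997) had folds of 3.27 in replicate 1 and 5.30 in replicate 2, a mean of 4.28 ± 1.44 (SD, n = 2), with a −log10 q of 4.41 and 19.1. As at Pou3f1, the replicate 1 peak lay inside the gene, from 71 to 1932 bp downstream of the TSS, and the replicate 2 peak of 3944 bp reached 1776 bp upstream and 2167 bp downstream. The reproducible peak, chr8:78434396-78438443, was annotated by the authors to the 5' UTR and centred 228 bp from the TSS.

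Pou4f1 (NCBI Gene 18996) carried peaks at both ends. At its start, the folds were 2.57 in replicate 1 and 3.4 in replicate 2, with a −log10 q of 1.55 and 5.94. In replicate 1, 94.4% of peaks were as strong as this one or stronger. There the replicate 1 peak lay 54 to 1059 bp downstream of the TSS. The replicate 2 peak ran from 530 bp upstream to 2298 bp downstream. The other peak lay beyond the 3' end, with folds of 3.33 and 3.74 and widths of 698 and 826 bp. It was this 3' peak that entered the reproducible set, at chr14:104460380-104461487, which the authors class as intergenic and give to Pou4f1 at 7066 bp from the TSS. The mean of the stronger peak was 3.53 ± 0.291 (SD, n = 2). The non-coding genes D130079A08Rik and Gm35362 lay 1044 and 4103 bp from the reproducible peak.

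At Pou4f3, on chromosome 18, the folds were 3.38 in replicate 1 and 4.32 in replicate 2, a mean of 3.85 ± 0.667 (SD, n = 2). The replicate 1 peak of 1012 bp covered 63.2% of the 1497 bp gene span, and the replicate 2 peak of 2077 bp covered 100% of it. A second replicate 2 peak with a fold of 3.17 lay 2122 bp from the gene and overlapped the non-coding gene Gm31438 by 670 bp. Neither entered the reproducible set.

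**Figure D2:**
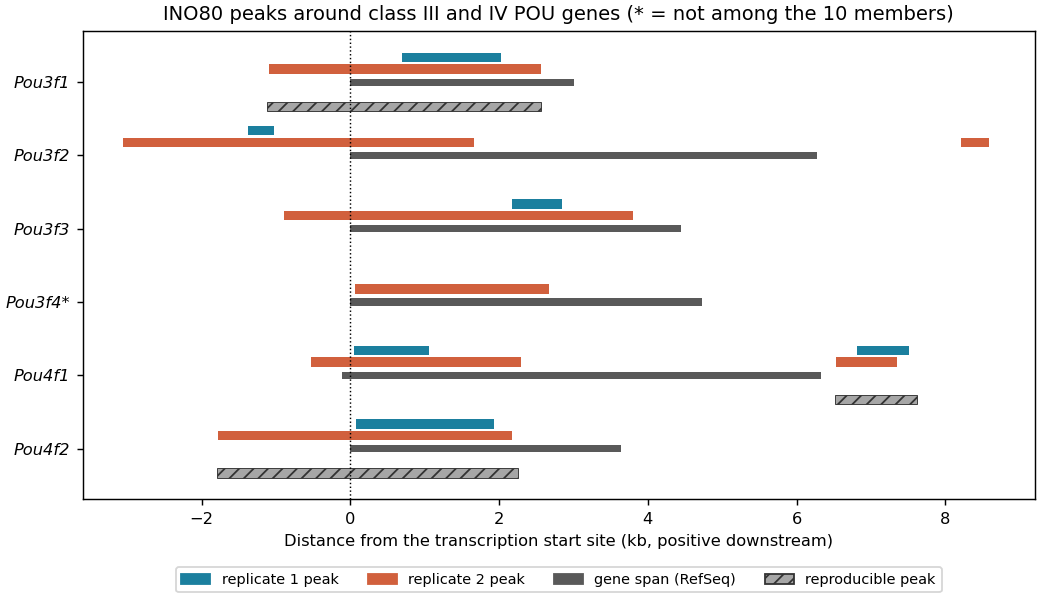
Position of INO80 peaks (coloured bars) and RefSeq gene spans (dark bars) for the class III and IV POU genes with a strand in the sources used, as distance from the TSS in kb (x axis). Replicate 2 peaks reach across the TSS of Pou3f1, Pou3f2, Pou3f3, Pou4f1 and Pou4f2, while replicate 1 peaks at these genes start 54 bp or more to one side of it.

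In mean fold the members ranked Pou3f1, Pou3f3, Pou4f2, Pou4f3, Pou4f1 and Pou3f2. The gap between each pair of neighbours in this order was smaller than the larger of their SDs. Taken replicate by replicate, Pou3f1 was above Pou3f3, Pou4f3 above Pou4f1 and Pou4f1 above Pou3f2 in both, whereas Pou3f3 and Pou4f2, and Pou4f2 and Pou4f3, changed places. The SDs hold an offset between the lists, because fold was higher in replicate 2 at 89.1% of all 4722 replicate 1 peaks with a replicate 2 partner. Where several replicate 2 peaks overlapped 1 replicate 1 peak, the partner with the highest fold was taken, which raises this share and the fold ratios over all shared peaks. Within replicate 1 the order after Pou3f1 was Pou4f3, Pou4f1, Pou4f2, Pou3f3 and Pou3f2. Within replicate 2 it was Pou3f3, Pou4f2, Pou4f3, Pou4f1 and Pou3f2.

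The replicates differed in width more than in fold at these genes. There were 7 overlapping pairs at the 6 members, with Pou4f1 holding a pair at each end. In all 7 the replicate 2 peak was wider and stronger, as it was for 90.0% (width) and 89.1% (fold) of shared peaks in general. The width ratio of replicate 2 to replicate 1 ran from 1.18 at the 3' peak of Pou4f1 to 13.8 at Pou3f2, with a median of 2.76, beside a median of 1.63 over all shared peaks. At Pou3f2, 0.233% of shared peaks had a width ratio as large, and at Pou3f3, with 6.90, it was 1.67%. The fold ratio had a median of 1.32, beside 1.29 over all shared peaks. It was largest at Pou3f3, at 2.44, a ratio that 0.339% of shared peaks reached. In 6 of the 7 pairs the replicate 1 peak lay entirely inside the replicate 2 peak.

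By width within the replicate 2 list, 1.21% of all peaks were as wide as the Pou3f2 peak, 1.29% as wide as that of Pou3f3, 2.45% as wide as that of Pou4f2 and 3.16% as wide as that of Pou3f1. The median replicate 2 peak was 1067 bp wide. In replicate 1, whose median was 765 bp, the peaks of Pou4f2 and Pou3f1 were also among the wider ones (5.27% and 14.7% of peaks as wide), whereas those of Pou3f3 (58.7%) and Pou3f2 (98.2%) were not.

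Membership of the reproducible set did not follow overlap alone. Of the 7 pairs, 3 were in it, beside 61.1% of all shared replicate 1 peaks. Those inside had replicate 1 folds of 4.88, 3.33 and 3.27. Of the 4 outside, Pou3f3, Pou3f2 and the start of Pou4f1 had lower replicate 1 folds of 2.81, 2.63 and 2.57, but Pou4f3, at 3.38, did not. The deposited set gives no IDR value per peak, so the distance of these pairs from the threshold is unknown.

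**Figure D3:**
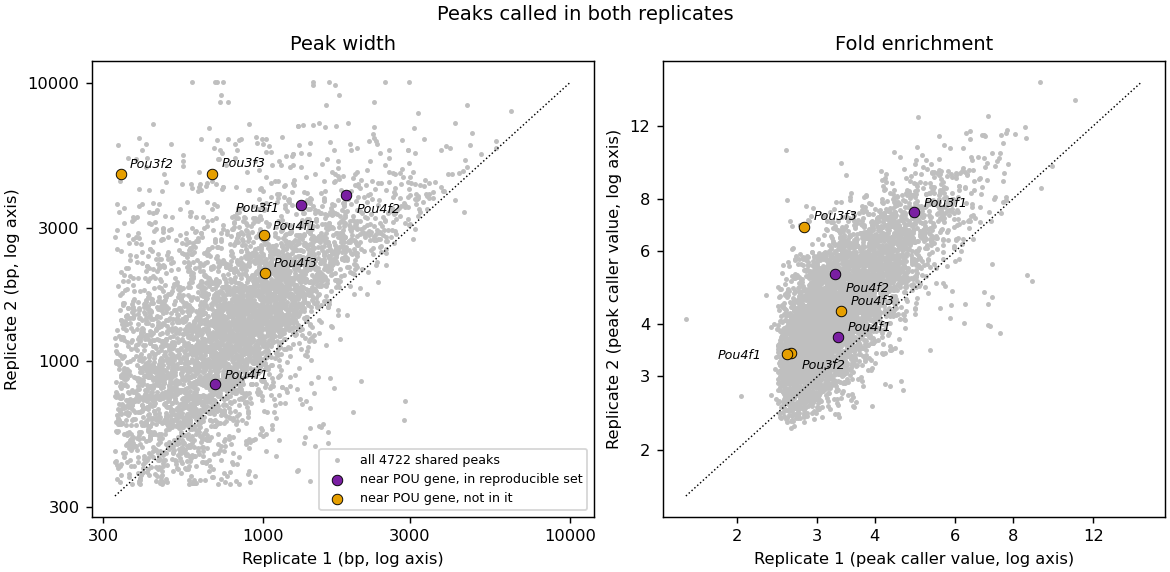
Width in bp (left) and fold enrichment (right) of peaks called in both replicates, replicate 1 on the x axis and replicate 2 on the y axis, on log axes with a dotted line of equality. Grey points are all 4722 shared peaks and coloured points the 7 pairs near POU genes, with Pou3f2 and Pou3f3 far to the left for their replicate 2 widths of 4723 and 4696 bp.

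The class II genes include Pou2f1 (Oct-1), which is expressed in most cells and serves histone and small nuclear RNA genes, and Pou2f2 (Oct-2) of B cells. Pou2f1 had no peak in any list within 5 kb, although its span of 137600 bp was the longest among the members. Pou2f2 had a replicate 2 peak of 783 bp with a fold of 2.33, near the bottom of that list, where 98.7% of peaks were as strong or stronger. It lay inside the gene, 11630 to 12412 bp downstream of the TSS in the promoter table, and had no overlap in replicate 1. Pou5f1 and Pou6f1, a gene expressed in the brain, had no peak within 5 kb in any list. Nor had Pou1f1 of the pituitary, Pou2f3 of tuft cells or Pou5f2 (Sprm1), which is expressed in the testis.

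The members with peaks were mostly short genes, although Pou5f1, with a span of 4746 bp, had none. The 6 class III and IV members span 1497 to 6444 bp, and the other 4 members 4746 to 137600 bp, around a median of 17169 bp for protein-coding genes. Among the 6008 protein-coding genes of 6444 bp or less, 16.8% had a replicate 1 peak and 23.5% a replicate 2 peak within 5 kb, both below the shares over all genes. Peaks were counted over the span and 5 kb on each side, so a shorter gene had a smaller region to hold one. These shares are therefore no measure of binding per length. Whether gene length bears on the peaks at the members was not tested. Near the edge of the window, the farthest peak inside was the second Pou4f3 peak at 2122 bp. The nearest outside were a replicate 2 peak of fold 3.10 at 5094 bp from Pou4f1 and a replicate 2 peak of fold 2.61 at 5716 bp from Pou5f1.

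Promoter sequence, which the choice of members did not use, was then compared with the peaks. The RefSeq promoter table (GRCm38.p6, 250 bases before to 50 after each start) held 11 promoters of 8 members and 4 of 3 other POU genes, and 21263 of protein-coding genes in all. CpG observed over expected is the number of CG dinucleotides divided by the number expected from the C and G content of the window. Pou4f1 had the highest value of the members, 1.24 with 57 CpGs, which 0.254% of all promoters reached. Its window lay under the replicate 2 peak. So did those of Pou3f2 (0.824, 24 CpGs), Pou3f3 (0.699, 18 CpGs) and Pou4f2 (0.563, 18 CpGs). The median over all promoters was 0.567, with 13 CpGs, and over promoters under a replicate 2 peak it was 0.812.

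Some CpG-rich promoters of members lay under no peak. The outermost Pou2f1 promoter had a value of 1.01 with 32 CpGs and that of Pou6f1 0.702 with 26 CpGs, both under no peak. Over all promoters, the share under a replicate 2 peak was 0.983% for values below 0.25, 8.77% from 0.25 to 0.5, 31.6% from 0.5 to 0.75, 38.8% from 0.75 to 1.0 and 43.9% from 1.0 up. In replicate 1 it went from 0.19% in the lowest of these classes to 35.3% in the highest. Both Pou5f1 promoters were poorer, at 0.374 (11 CpGs) and 0.388 (6 CpGs), as was the only listed one of Pou2f2 at 0.424 (13 CpGs). That Pou2f2 window is an inner one. Its TSS is at 25132460 on the minus strand, and the annotated span runs to 25180797, so the outer start was not examined. The inner Pou2f1 promoters had 2 CpGs each. No replicate 1 peak covered a promoter window of any member, although 4 members with a window in the table had a replicate 1 peak nearby. Among all 4487 genes with a replicate 1 peak and a promoter in the table, 64.6% had such a window under the peak. In replicate 2 it was 4 of 5 members, beside 66.1% of 6132 genes. At Pou4f1 and Pou4f2 a replicate 1 peak stopped just short of the window. The Pou4f1 peak ended at position 104467945, and the window began at 104467950. The Pou4f2 peak ended at 78436576, and the window began at 78436598. At Pou3f2 and Pou3f3 the replicate 1 peak lay farther off, 1034 and 2170 bp from the TSS. Peak position entered the choice of members, so nothing is read from these shares.

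Promoters of 5 members are shown to set those under a peak beside those under none, 5' to 3' on the gene's strand, in lower case with each CG dinucleotide in capitals. Pou4f1 (chr14:104467950-104468249, minus strand), Pou4f2 (chr8:78436598-78436897, minus) and Pou3f3 (chr1:42695518-42695817, plus) lay under a replicate 2 peak. Pou2f1 (chr1:166002585-166002884, minus, its outermost promoter) and Pou5f1 (chr17:35505782-35506081, plus) lay under none.
Pou4f1: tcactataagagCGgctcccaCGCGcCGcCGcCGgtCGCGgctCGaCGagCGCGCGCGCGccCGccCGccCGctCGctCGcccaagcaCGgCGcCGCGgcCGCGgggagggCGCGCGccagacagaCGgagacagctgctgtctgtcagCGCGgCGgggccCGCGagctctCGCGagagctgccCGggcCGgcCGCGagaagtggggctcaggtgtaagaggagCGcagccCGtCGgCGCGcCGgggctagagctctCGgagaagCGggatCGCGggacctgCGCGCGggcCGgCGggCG
Pou4f2: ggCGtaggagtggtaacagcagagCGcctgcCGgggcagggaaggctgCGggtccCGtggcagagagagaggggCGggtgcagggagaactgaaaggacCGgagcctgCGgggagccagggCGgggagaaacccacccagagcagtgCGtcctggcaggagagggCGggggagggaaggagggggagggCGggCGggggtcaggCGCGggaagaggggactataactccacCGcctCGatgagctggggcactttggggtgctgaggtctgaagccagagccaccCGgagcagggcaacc
Pou3f3: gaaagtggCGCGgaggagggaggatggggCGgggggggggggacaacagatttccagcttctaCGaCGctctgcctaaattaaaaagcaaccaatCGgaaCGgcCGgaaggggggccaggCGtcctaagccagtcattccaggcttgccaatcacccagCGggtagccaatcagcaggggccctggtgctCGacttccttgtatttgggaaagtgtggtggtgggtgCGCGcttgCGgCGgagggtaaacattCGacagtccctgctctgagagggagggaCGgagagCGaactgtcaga
Pou2f1: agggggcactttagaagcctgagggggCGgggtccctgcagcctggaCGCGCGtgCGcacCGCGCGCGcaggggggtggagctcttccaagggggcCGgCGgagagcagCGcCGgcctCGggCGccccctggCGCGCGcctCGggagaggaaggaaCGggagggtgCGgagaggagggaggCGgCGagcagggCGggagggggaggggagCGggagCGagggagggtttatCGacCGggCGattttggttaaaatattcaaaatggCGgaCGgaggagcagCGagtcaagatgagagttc
Pou5f1: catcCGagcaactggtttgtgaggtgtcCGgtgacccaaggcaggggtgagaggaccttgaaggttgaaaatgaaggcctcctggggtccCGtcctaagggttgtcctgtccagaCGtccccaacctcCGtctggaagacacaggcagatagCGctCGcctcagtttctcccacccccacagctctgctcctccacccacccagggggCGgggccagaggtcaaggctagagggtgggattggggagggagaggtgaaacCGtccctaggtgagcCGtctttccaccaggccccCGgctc

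The windows hold 57 CpGs at Pou4f1, 32 at Pou2f1, 18 each at Pou4f2 and Pou3f3 and 11 at Pou5f1, so the Pou2f1 window without a peak has more than those of Pou4f2 and Pou3f3 under one. The GC box GGGCGG, read on both strands, occurred in the windows of all 4 class III and IV members in the table and in 4 of the 7 promoters of the other members, beside 46.2% of all promoters and 73.4% of those under a replicate 2 peak. The octamer ATGCAAAT, which POU proteins themselves bind, occurred on neither strand in any of the 11 member promoters, beside 1.66% of all promoters. The CCAAT box, read as CCAAT on both strands, occurred in 4 of the 11, those of Pou3f2 and Pou3f3 and both of Pou5f1, beside 38.2% of all promoters. The TATA box, read as TATAAA, occurred in 1 of the 11, an inner promoter of Pou2f1, beside 12.6% of all promoters. No motif searched contains another. A match describes the window and not a bound site.

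**Figure D4:**
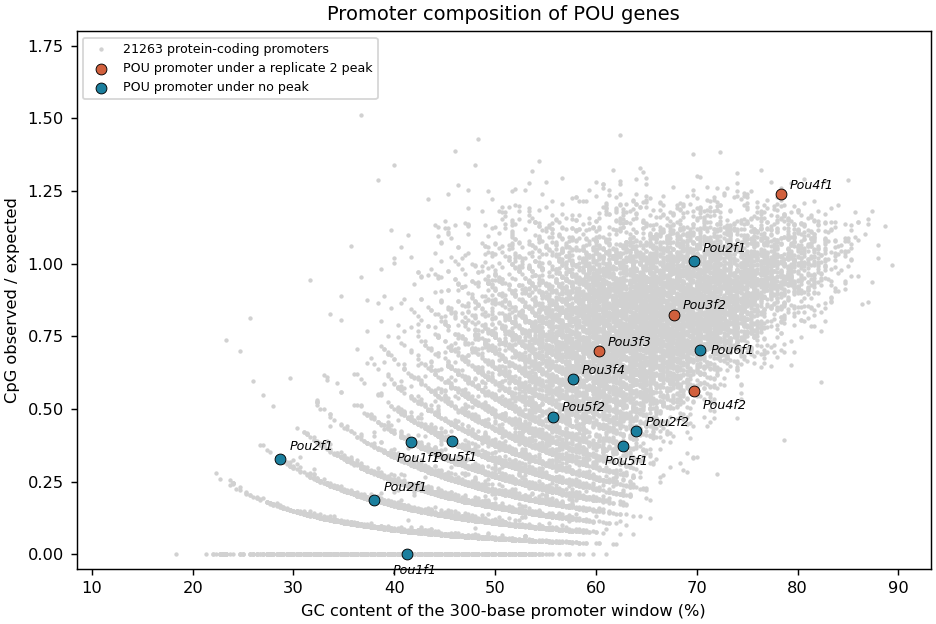
CpG observed over expected (y axis) against GC content in percent (x axis) of 300-base promoter windows, for 21263 promoters of protein-coding genes (grey) and 15 promoters of POU genes (coloured by whether a replicate 2 peak lies over the window). The 4 windows under a peak, Pou4f1, Pou3f2, Pou3f3 and Pou4f2, range from 0.563 to 1.24, and the outermost Pou2f1 window at 1.01 and Pou6f1 at 0.702 lie among them without a peak.

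Genes that work with POU factors were counted in the same way, beside the 14.9% of all protein-coding genes with a reproducible peak within 5 kb. These lists and those below were chosen with earlier results of these data known, so nothing is read from their differences from the background. Of 8 genes that respond to GDNF in spermatogonia, as Pou3f1 does, 5 had one. The strongest were Egr3 (folds 3.76 and 7.68 in replicates 1 and 2), Egr2 (4.67 and 6.63) and T (3.97 and 5.01), and Bcl6b and Etv5 had no reproducible peak. Of the GDNF receptor genes, Ret had one (4.14 and 6.04) and Gfra1 did not, though both had a peak in the replicate 2 list. Neural partners of class III and IV genes had 5 of 9, led by Sox11 (6.77 and 8.96), the LIM homeobox gene Isl1 (7.16 and 7.07) and Ebf3 (4.22 and 6.42), without Atoh7 and Myt1l. Pluripotency partners of Pou5f1 had 3 of 10, Sall4 (3.73 and 4.96), Klf4 (2.93 and 4.55) and Sox2 (3.22 and 4.25), without Esrrb and Lin28a, so Sox2 carried a peak where Pou5f1 itself had none. More genes had a peak in the lists of replicates 1 and 2, beside 26.0% and 35.7% of all genes. The counts were 7 and 7 of the 8 GDNF-responsive genes, 6 and 7 of the 9 neural partners and 4 and 5 of the 10 pluripotency partners.

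None of 3 coactivator genes of the class II proteins had a reproducible peak, among them 1810046K07Rik and Colca2, and in the lists of replicates 1 and 2 the counts were 0 and 1. Of 6 genes that act with Pou2f1 at histone and small nuclear RNA genes, Snapc2 had one within 5 kb (3.63 and 5.04), which the authors assigned to Ctxn1, and Npat and Snapc1 had none. In the authors' deposited table of functional terms, the keyword Homeobox held 66 of 2412 genes near peaks, a fold enrichment of 2.22 with an adjusted p-value of 1.69e-08. That was 2.74% of the genes, beside 1.23% of the authors' background. The terms came from genes near the same INO80 peaks, so they are no separate evidence on the POU genes. Pou3f1 and Pou4f2 were among the 66 in the authors' deposited table, and Pou4f1 was in none of its 2291 terms.

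Peaks near markers of testis cells were counted because the Percoll fraction could hold other cells, again beside the 14.9% of all genes with a reproducible peak. Such a peak lay within 5 kb of 5 of 8 spermatogonial markers, led by Kit (4.81 and 7.22), Ret (4.14 and 6.04) and Dmrt1 (4.38 and 5.29), whose peak the authors gave to the promoter of Dmrt3, with none at Gfra1 or Id4. The count was 1 of 8 for zygotene spermatocytes, Sycp2, with none at Dmc1 or Hormad1, and 0 of 8 in each replicate's own list. The authors gave the Sycp2 peak to Ppp1r3d, and the replicate peaks that overlap it (4.16 and 7.83) lie more than 5 kb from Sycp2. It was 4 of 7 for Sertoli cells, led by Kitl (3.95 and 4.88), Wt1 (3.54 and 4.16) and Sox9 (3.18 and 4.42), without Amh and Clu. Among peritubular and endothelial markers 1 of 5 had a peak, Flt1 (4.75 and 6.36), with none at Acta2 or Cdh5. None of 5 Leydig cell markers, Cyp11a1 and Cyp17a1 included, and none of 4 macrophage markers, Adgre1 and Aif1 included, had one. In the lists of replicates 1 and 2, the counts were 6 and 7 of 8 for spermatogonial markers and 5 and 6 of 7 for Sertoli markers. They were 1 and 1 of 5 for Leydig markers and also for peritubular and endothelial markers, and 0 and 0 of 4 for macrophage markers. The shares of all genes in these lists were 26.0% and 35.7%. INO80 binding is no measure of expression, and the part of other cells in the peaks at POU genes was not tested.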

How the data were processed

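INO80 ChIP-seq peaks and read numbers were used as the authors deposited them. Of tools, the submitters' processing notes list MACS2 2.2.7.1 beside BWA, fastp, deepTools 3.4.3, SAMtools 1.11 and Picard 2.21.2. The builds listed are mm10 and GRCm38. Roles, and the control behind each fold, are not given in the sources used. Each broad peak list holds the authors' fold enrichment, −log10 p and −log10 q per peak, and a deposited score. The score equals 10 times the −log10 q, truncated, for all 5123 replicate 1 peaks and for 7835 of 7836 replicate 2 peaks. The deposited functional table gives fold enrichments and p-values per term, per the file headers. Input libraries had read numbers and no peak list here, so input shows no value of its own.

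Genes were the 21887 protein-coding genes of the RefSeq table (GRCm38.p6) on chromosomes 1 to 19, X and Y. A peak belonged to a gene at a gap of at most 5 kb from its span, and replicate peaks were shared at an overlap of 1 bp or more. Starts and strands came from the RefSeq promoter table. For Pou3f1, which it does not list, they came from the authors' distance and the RefSeq gene end. For Pou4f3 neither gave a strand. Percentages of a list are ranks within that list. No test was run on the members, since they were chosen with peaks in view and there are 2 libraries of 1 group. Intervals for single values would need read counts per peak, which the lists do not hold. Members, gene lists and the rule for named genes were chosen with earlier results of these data known. Some genes are not reported here. The rule named the POU genes, up to 3 genes with and 2 without a reproducible peak per list, and the 5 genes most like Pou3f1. Scripts ran in Python with pandas and were tested on made-up intervals and sequences with known answers.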

Additional observations from a re-analysis of the deposited data

How the results depend on the processing

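The count of members with a reproducible peak, 3 of 10, was the same within 1 kb or 10 kb of the gene, by the authors' gene names and at a −log10 q of at least 3 in both replicates. Around the annotated start it was 2, without Pou4f1, whose peak lies at the far end. It was 6 for replicate peaks that overlap by at least 1 bp and 6 at 50% of the shorter, which by construction ask for no IDR. With the list of a single replicate in its place it ran from 6 to 7. The members with a replicate 1 peak numbered 5 within 1 kb, 6 within 10 kb and 4 at the stricter q, beside 6. In replicate 2 they numbered 7, 8 and 6, beside 7. Of 11 values of the mean fold at the 6 members from a 1 kb window or from the widest peak, 1 moved by more than 1 SD, that of Pou4f1 from 3.53 to 2.99 with its widest peak. At Pou3f1, Pou3f3 and Pou4f2, each with 1 peak per replicate that overlaps the gene, neither change could move the value. With 1 replicate left out, the mean is the other's value, which cannot lie over 1 SD away, and at Pou3f3 it goes from 4.83 to 2.81 without replicate 2. Pou3f2 gives no mean within 1 kb. Of 13 other gene lists, 2 moved by over 1.5 times within 1 kb, both from 1 gene to 0 (Snapc2 and Sycp2). Median CpG observed over expected was taken over promoters, 4 of class III and IV members and 7 of the other 4 members. In the 100 bases around the start it was 1.07 and 0.444, beside 0.761 and 0.388 in the full window. The 4 leave out Pou3f1 and Pou4f3, which have no promoter listed. The 7 include the inner Pou2f1 windows, at 0.187 and 0.329 in full, the inner Pou2f2 window and both of Pou5f1. The medians therefore do not compare 1 start per gene. No paired analysis was possible because the input samples have no peak values to pair with the INO80 replicates. No read counts per peak were used, so the depth behind a fold, and the reach of a missing peak, are unknown.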

Other observations

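Further peaks lay between 5 and 10 kb from POU genes. Upstream of Pou3f2, both replicates held a peak, with folds of 2.86 and 2.73 and gaps of 9501 and 9536 bp to the gene, and neither entered the reproducible set. A replicate 2 peak of 2820 bp with a fold of 3.11 lay 8700 bp from Pou3f3, with none in replicate 1. A reproducible peak lay 6924 bp from Pou2f3, with folds of 4.31 and 5.14, and the authors placed it at the promoter of Tmem136. None of the 6 POU pseudogenes in the RefSeq table (5 of them copies of Pou5f1) had a peak within 5 kb in any of the 3 lists.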
